A study of Mus musculus with 6 samples.

Results

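Described here are 34 genes of the NRF2 pathway and of glutathione and peroxide defence in 4T1 cells, a mouse mammary carcinoma cell line. The genes were listed by name, and a gene was kept where its mean over the 6 libraries was at least 1 FPKM (fragments scaled to transcript length and to library size). All 34 of the 34 listed genes were kept, out of 11741 genes at that level and 28418 genes in the deposited tables. The exposed cells had been kept for 35 passages in 100 nM PFOS (perfluorooctane sulfonate, a surfactant that persists in the environment) and gave 3 libraries. The cells labelled 0 nM PFOS gave the other 3 libraries, and the same 35 passages are stated for them. The labels name no genotype, transgene or other agent, and nothing in them says that the libraries come from separate cultures. The p-values therefore reflect only how these samples spread, and that spread may be technical.

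NRF2, encoded by Nfe2l2, is a transcription factor that the adaptor protein KEAP1 marks for degradation in unstressed cells. Oxidants and electrophiles modify KEAP1, NRF2 then accumulates, pairs with small MAF proteins and binds antioxidant response elements near genes for glutathione synthesis, NADPH supply, thioredoxin recycling and detoxification. Glutathione and thioredoxin in turn supply the electrons with which glutathione peroxidases and peroxiredoxins remove peroxides, and tumour cells often rely on these systems.

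The core letters of the antioxidant response element, TGACNNNGC, were searched on both strands of the RefSeq promoter windows (GRCm38.p6, 250 bases before to 50 bases after a gene's start). Windows were given for 30 of the 34 genes, all but Gsr, Gsta4, Gclc and Prdx6. Of these 30, 10 (33.3%) held the letters, against 14.0% of 27025 genes with a window. A gene counted where any of its windows held them, and the 30 genes had 40 windows, against 32851 for the 27025. The genes were listed by name with known NRF2 targets among them, so the shares were not compared on like terms. The following 6 of the 10 with a match are shown as examples, for NRF2 itself and for 5 genes of peroxide reduction, glutathione synthesis, thioredoxin recycling and NADPH supply. They were picked after the matches were known. Each is written 5′ to 3′ on the strand that reads TGACNNNGC, with the 9 matching bases in capitals.
Prdx1 (chr4:116685456-116685484, minus strand): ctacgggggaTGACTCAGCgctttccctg
Me1 (chr9:86695902-86695930, minus strand): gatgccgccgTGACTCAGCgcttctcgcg
Gclm (chr3:122245413-122245441, minus strand): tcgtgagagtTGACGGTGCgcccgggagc
Txnrd1 (chr10:82859104-82859132, minus strand): cgtgtcagaaTGACAAAGCaaaaatccag
Srxn1 (chr2:152105542-152105570, minus strand): tgtctcactcTGACCTAGCtgcccactgc
Nfe2l2 (chr2:75704885-75704913, minus strand): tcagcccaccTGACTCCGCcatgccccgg
In Prdx1 and Me1 the match also holds TGACTCA, the letters of the AP-1 motif, so these windows read the same for both motifs. The other matches lay in Pgd, Mgst1, Sod1 and G6pdx. A match is a description of the letters in that window only, and a window without one says nothing of elements farther away.

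None of the 34 genes passed the test for a difference between 100 nM and 0 nM PFOS. That is 0 of 34 at a Benjamini-Hochberg adjusted p under 0.05 in limma, fitted on all 11741 genes, where 4.15% of all tested genes passed (487, of which 198 were higher and 289 lower at 100 nM). At an unadjusted p under 0.05 there were 8 of 34 (23.5%), against 20.7% of all tested genes. Groups without overlap were found for 10 of 34 (29.4%), against 26.9% of all tested genes. These shares lay near the background.

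Differences are given as 100 nM minus 0 nM of log2(FPKM + 1). This scale makes the changes of low genes look smaller than they are. Their median over the 34 genes was 0.03, against 0.01 over all tested genes, and the median of their sizes without sign was 0.05, against 0.06. The lowest was -0.10 (Gstm1) and the highest 0.25 (Gsta4). For 29 of the 34 genes (85.3%) the 95% interval of the difference lay wholly between -0.26 and 0.26. The share over all tested genes was 73.5%. The median level was 27.3 FPKM for the 34 genes and 7.62 FPKM for all tested genes. The shares of 85.3% and 73.5% were not compared at like level. The limits are 1.2-fold of FPKM + 1. For low genes, among them Gss and Osgin1, the interval reached past 1.2-fold of FPKM itself. The intervals of Gsta4, Blvrb, Ephx1, Srxn1 and Prdx5 reached past -0.26 or 0.26, so a change of that size was not bounded for them. Promoter windows with and without the 9 letters gave medians of 0.02 and 0.04 (10 and 20 genes). Gsta4, Gclc, Gsr and Prdx6 had no window and are in neither median.

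**Figure D1:**
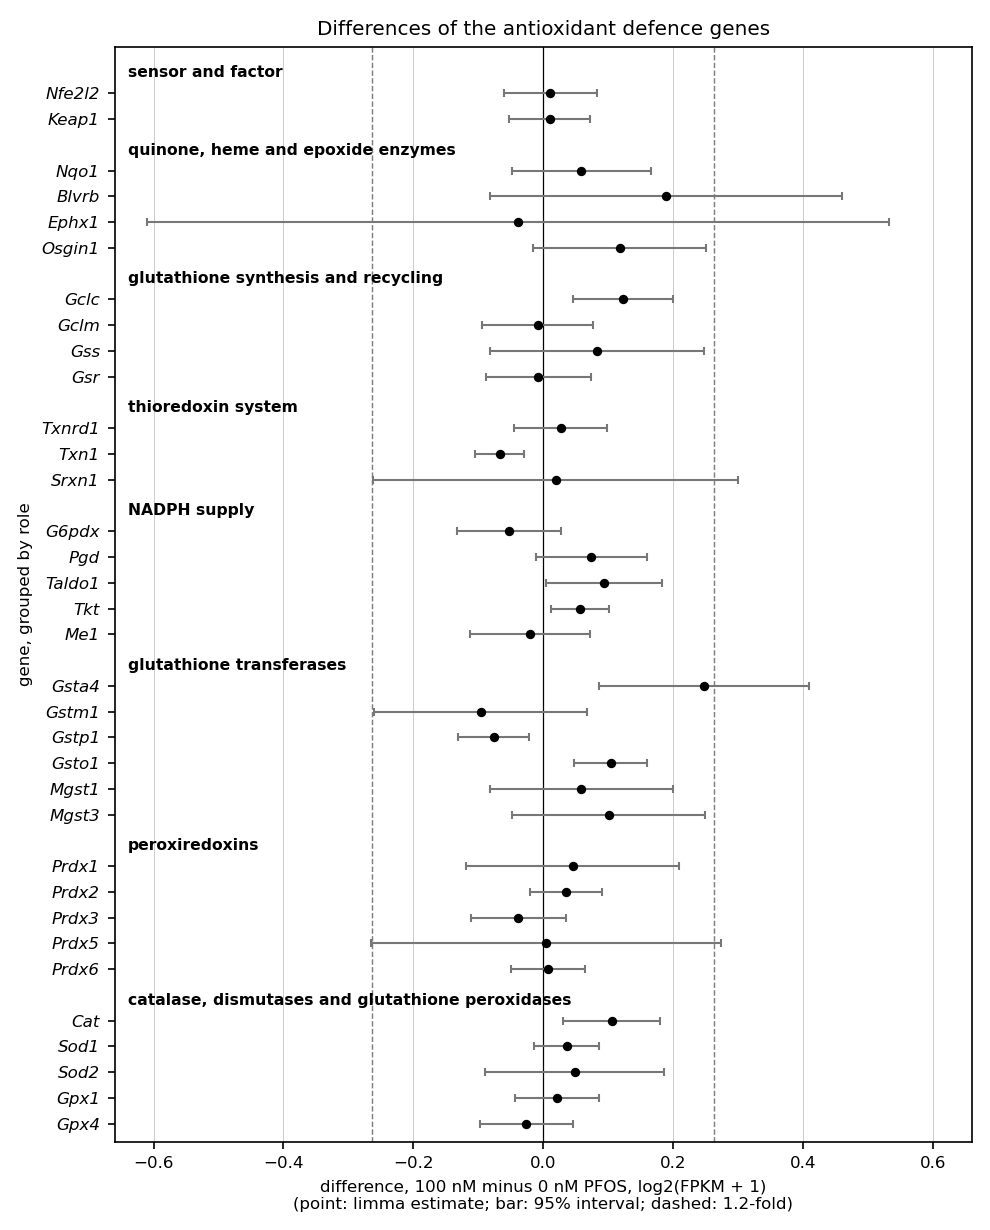
Difference between 100 nM and 0 nM PFOS for each of the 34 genes on the log2(FPKM + 1) scale, grouped by role, with the limma estimate as a point and its 95% interval as a bar. Dashed lines mark 1.2-fold of FPKM + 1. Most points lie within 0.1 of 0, and Ephx1 has the widest interval, from -0.61 to 0.53.

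The factor and its sensor overlapped between the groups, and their intervals were narrow. Nfe2l2 (ENSMUSG00000015839, chromosome 2, 75675513 to 75704641) had 25.0, 24.1 and 24.1 FPKM at 100 nM, against 23.5, 24.3 and 24.8 FPKM at 0 nM. The groups overlapped, and the difference of 0.01 had a 95% interval of -0.06 to 0.08 (limma adjusted p = 0.876). Keap1 (chromosome 9, 21229730 to 21239361) had 14.9, 15.1 and 14.7 FPKM at 100 nM, against 15.0, 14.8 and 14.6 FPKM at 0 nM, with a difference of 0.01 and an interval of -0.05 to 0.07. Keap1 varied least of the 34 genes together with Sod1, its highest library being 1.04 times its lowest. NRF2 is controlled mainly through the stability of its protein, which transcript levels do not show. Of the Keap1 transcript sequence, 9.02% is also read on the other strand by the antisense gene Gm16754.

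Among quinone, heme and epoxide enzymes, which NRF2 is known to induce, 0 of 4 passed, where 4.15% of all tested genes did. Such a group of 4 genes is too small to compare shares. Nqo1, a quinone reductase and the usual marker of NRF2 activity, had 9.30, 8.93 and 8.50 FPKM at 100 nM, against 8.39, 8.22 and 8.94 FPKM at 0 nM. One 0 nM library lay inside the range of the 100 nM libraries, and the difference of 0.06 had an interval of -0.05 to 0.17. Osgin1, an oxidative stress induced growth inhibitor, had 6.39, 6.79 and 7.2 FPKM at 100 nM, against 5.81, 6.18 and 6.56 FPKM at 0 nM (difference 0.12, interval -0.02 to 0.25, limma adjusted p = 0.295). Blvrb, a biliverdin reductase, averaged 4.52 ± 0.872 FPKM at 100 nM and 3.81 ± 0.252 FPKM at 0 nM (SD, n = 3 each). Ephx1, the microsomal epoxide hydrolase, varied most of the 34 genes, with 3.41, 4.99 and 2.25 FPKM at 100 nM, against 3.55, 2.72 and 4.50 FPKM at 0 nM. Its highest and its lowest value both came from the 100 nM group and differed 2.22-fold, so these libraries set no narrow limit on Ephx1.

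In glutathione synthesis and recycling, Gclc gave the clearest separation of the groups but did not pass. Gclc, the catalytic subunit of glutamate-cysteine ligase, which sets the rate of glutathione synthesis (ENSMUSG00000032350, chromosome 9, 77754535 to 77794485), had 15.98, 15.7 and 15.7 FPKM at 100 nM, against 14.8, 14.7 and 13.8 FPKM at 0 nM. Every 100 nM library lay above every 0 nM library, and the difference was 0.12 with an interval of 0.05 to 0.20 (limma adjusted p = 0.0911). Its partner Gclm, the modifier subunit, had 11.8, 11.9 and 12.7 FPKM at 100 nM, against 12.5, 12.0 and 12.2 FPKM at 0 nM. Gclm thus overlapped, with a difference of -0.01 and an interval of -0.09 to 0.08, although both subunits are known NRF2 targets. Gss, glutathione synthetase, averaged 4.30 and 4.00 FPKM at 100 nM and 0 nM, and Gsr, which reduces oxidised glutathione, averaged 53.3 and 53.5 FPKM. Gss overlaps Acss2 on the other strand.

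Txn1, which encodes thioredoxin, was the most abundant of the 34 genes and slightly lower at 100 nM in every library. Txn1 (ENSMUSG00000028367, chromosome 4, 57943373 to 57956411) had 296, 291 and 292 FPKM at 100 nM, against 306, 308 and 308 FPKM at 0 nM. The groups did not overlap, the ratio of means was 0.954, and the difference of -0.07 had an interval of -0.10 to -0.03, but the gene did not pass (limma adjusted p = 0.0678). A processed pseudogene, Txn-ps1, shares 6.95% of its 31-base words. Txnrd1, the thioredoxin reductase that recycles it, had 40.3, 39.9 and 39.97 FPKM at 100 nM, against 40.9, 38.9 and 38.1 FPKM at 0 nM, with an interval of -0.04 to 0.10. Srxn1, sulfiredoxin, which repairs overoxidised peroxiredoxins, had 18.8, 21.7 and 25.9 FPKM at 100 nM, against 22.99, 22.8 and 19.4 FPKM at 0 nM. The lowest and the highest of the 6 Srxn1 values were both from the 100 nM group, and the interval ran from -0.26 to 0.30.

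Of the 5 genes grouped under NADPH supply, 0 passed, where 4.15% of all tested genes did. Taldo1 and Tkt, 2 of the 5, did not overlap between groups, where 26.9% of all tested genes did not. The dehydrogenases G6pdx and Pgd and the malic enzyme Me1 overlapped. Taldo1, transaldolase of the pentose phosphate pathway, had 49.2, 49.5 and 52.4 FPKM at 100 nM, against 45.5, 46.8 and 49.1 FPKM at 0 nM. Tkt, transketolase, which works beside it, had 73.3, 74.4 and 74.7 FPKM at 100 nM, against 71.3, 70.8 and 71.8 FPKM at 0 nM. Both were higher in every 100 nM library, Taldo1 by 0.09 (interval 0.00 to 0.18, limma adjusted p = 0.221) and Tkt by 0.06 (interval 0.01 to 0.10, limma adjusted p = 0.155). G6pdx, the enzyme that opens the pathway, averaged 37.4 ± 1.47 FPKM at 100 nM and 38.8 ± 0.735 FPKM at 0 nM (SD, n = 3 each), with a difference of -0.05. Pgd, the next dehydrogenase, averaged 29.7 and 28.2 FPKM at 100 nM and 0 nM, and Me1, malic enzyme, averaged 12.6 and 12.8 FPKM. Me1 shares 36.9% of its words with transcripts of other genes, mostly a processed pseudogene, G6pdx 23.6% and Taldo1 14.0%, so their values are less certain.

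Of the 6 glutathione transferases, which attach glutathione to electrophiles, 0 passed, where 4.15% of all tested genes did. In 3 of the 6 the groups did not overlap, where 26.9% of all tested genes did not, and 6 genes are too few to compare shares. Gsto1, an omega class transferase (ENSMUSG00000025068, chromosome 19, 47854970 to 47864790), had 54.0, 56.6 and 54.9 FPKM at 100 nM, against 51.1, 51.3 and 51.4 FPKM at 0 nM. It had the smallest p of the 34 genes, with a difference of 0.10, an interval of 0.05 to 0.16 and a limma adjusted p of 0.0632. Gsto1 passed in 2 of 20 alternative settings, with a minimum of 5 FPKM and with protein-coding genes only, where fewer genes were tested. Gsta4, an alpha class transferase that takes up products of lipid peroxidation (ENSMUSG00000032348, chromosome 9, 78182774 to 78209349), had 9.79, 11.6 and 9.55 FPKM at 100 nM, against 8.45, 8.50 and 8.54 FPKM at 0 nM. It had the highest difference, 0.25, with an interval of 0.09 to 0.41 and a limma adjusted p of 0.101. The 100 nM libraries spread over 9.55 to 11.6 FPKM, while the 0 nM libraries lay within 0.1 FPKM of each other.

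Gstp1, the pi class transferase, had 70.4, 73.2 and 73.1 FPKM at 100 nM, against 76.6, 76.6 and 75.4 FPKM at 0 nM, with no overlap, a difference of -0.08 and an interval of -0.13 to -0.02 (limma adjusted p = 0.122). It shares 38.5% of its words with other genes, mostly its neighbour Gstp2, which had 11.3, 8.25 and 7.96 FPKM at 100 nM, against 10.95, 5.22 and 9.85 FPKM at 0 nM, so the split of reads between these copies is uncertain. Gstm1, a mu class transferase, averaged 12.8 ± 1.09 FPKM at 100 nM and 13.7 ± 0.882 FPKM at 0 nM (SD, n = 3 each) and shares 28.8% of its words. The membrane-bound Mgst1 averaged 4.21 and 4.00 FPKM at 100 nM and 0 nM, and Mgst3 averaged 11.4 and 10.6 FPKM.

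Peroxiredoxins, which reduce hydrogen peroxide with thioredoxin or glutathione, had summed levels of 410, 425 and 448 FPKM at 100 nM, against 426, 417 and 424 FPKM at 0 nM. Of these, 0 of 5 passed, where 4.15% of all tested genes did, and 5 genes are too few to compare shares. Prdx1, a cytosolic peroxiredoxin induced by NRF2, had 147, 155 and 177 FPKM at 100 nM, against 161, 152 and 151 FPKM at 0 nM. Its lowest and its highest value both came from 100 nM libraries, and the difference was 0.05 with an interval of -0.12 to 0.21. Prdx2, abundant in the cytosol, had 85.7, 87.8 and 85.8 FPKM at 100 nM, against 85.6, 85.2 and 82.3 FPKM at 0 nM. All 3 libraries at 100 nM lay above those at 0 nM for Prdx2, by a margin of 0.12 FPKM at the closest, and its difference was 0.03. Prdx3, the mitochondrial form, had 84.6, 86.8 and 80.5 FPKM at 100 nM, against 85.8, 85.4 and 87.5 FPKM at 0 nM. Prdx5 averaged 37.2 ± 4.44 FPKM at 100 nM and 37.1 ± 5.04 FPKM at 0 nM, and Prdx6 averaged 60.5 ± 1.52 FPKM at 100 nM and 60.2 ± 0.369 FPKM at 0 nM (SD, n = 3 each). Prdx5 overlaps Trmt112 and Prdx2 overlaps Junb and Rnaseh2a on the other strand, and the strand setting of the quantification is not given in the sources used here. Prdx1 shares 15.4% of its words with transcripts of other genes, Prdx2 16.5% and Prdx5 16.9%, so their values are less certain.

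Of catalase, the superoxide dismutases and the glutathione peroxidases, 0 of 5 passed, where 4.15% of all tested genes did. Here too, 5 genes are too few to compare shares. Cat, the peroxisomal catalase, had 28.4, 29.6 and 27.8 FPKM at 100 nM, against 26.01, 26.3 and 27.1 FPKM at 0 nM, without overlap; its difference was 0.11 with an interval of 0.03 to 0.18 (limma adjusted p = 0.122). Sod1, the cytosolic dismutase, averaged 27.5 ± 0.126 FPKM at 100 nM and 26.8 ± 0.269 FPKM at 0 nM (SD, n = 3 each), also without overlap, a ratio of 1.03. Sod2, the mitochondrial dismutase, averaged 7.94 and 7.63 FPKM at 100 nM and 0 nM. Gpx1, the main cytosolic glutathione peroxidase, had 209.9, 213 and 207 FPKM at 100 nM, against 212, 209 and 199 FPKM at 0 nM, with an interval of -0.04 to 0.09. Gpx4, which reduces lipid peroxides and restrains ferroptosis, had 81.8, 86.1 and 81.0 FPKM at 100 nM, against 82.9, 84.1 and 86.5 FPKM at 0 nM, with an interval of -0.10 to 0.05. Both peroxidases overlapped between the groups. Gpx4 shares 38.9% of its words with other transcripts, mostly Gpx4-ps2, and Sod2 shares 26.7%.

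In order of level, the list was led by Txn1, Gpx1 and Prdx1. Every Txn1 value lay above every Gpx1 value, and every Gpx1 value above every Prdx1 value. Prdx2, Prdx3 and Gpx4 followed with means of 83.0 to 86.4 FPKM at 100 nM and 84.4 to 86.2 FPKM at 0 nM, and their ranges overlapped, so their order is not fixed. At the low end stood Ephx1, Mgst1, Gss and Blvrb, with means of 3.55 to 4.52 FPKM at 100 nM and 3.59 to 4.00 FPKM at 0 nM. Summed over the 34 genes, the level was 1632, 1666 and 1678 FPKM at 100 nM, against 1657, 1649 and 1644 FPKM at 0 nM, a ratio of means of 1.01. Peroxiredoxins made up 25.7% of that sum, the thioredoxin system 21.9% and the dismutases, catalase and glutathione peroxidases 21.4%.

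**Figure D2:**
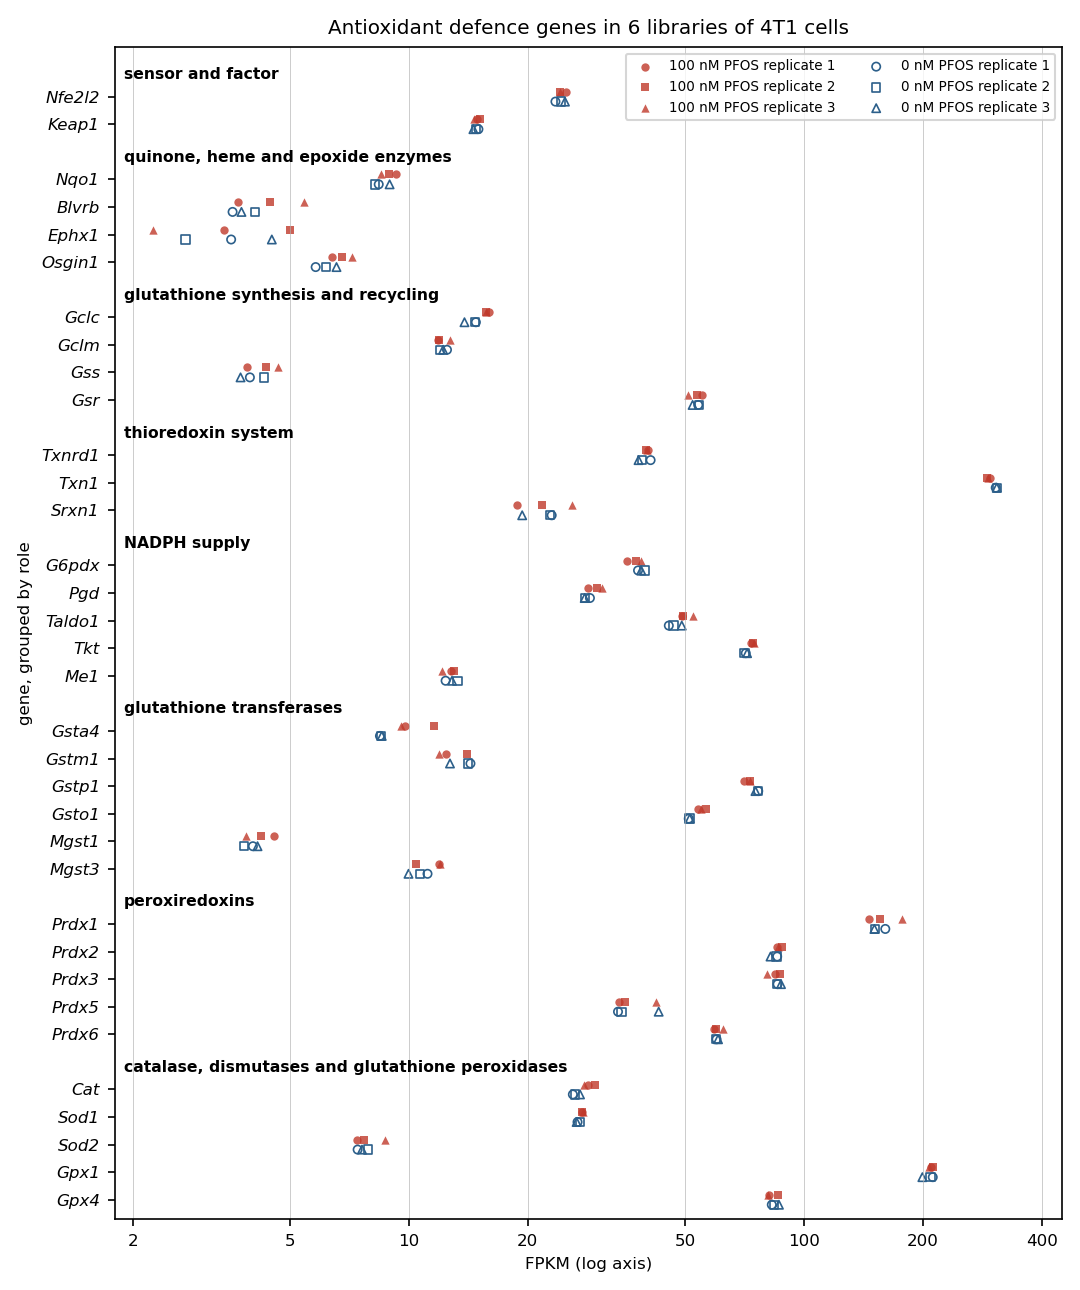
FPKM of each of the 34 genes in each library on a log axis, grouped by role, with the 3 libraries at 100 nM PFOS above (filled) and the 3 at 0 nM below (open). Levels run from 2.25 FPKM (Ephx1) to 308 FPKM (Txn1), and for most genes the symbols of both groups lie on top of each other.

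Replicate 3 at 100 nM stood apart from the other 5 libraries over all tested genes, with a first principal component score of 19.4 against -9.57 to 0.06 in the rest. In the 34 genes it was the highest of the 6 libraries for 13 (38.2%) and the lowest for 6 (17.6%), where over all tested genes it was the highest for 19.7% and the lowest for 21.4%. Blvrb stood at 5.43 FPKM there and at 3.58 to 4.45 FPKM in the other 5 libraries. In Srxn1, replicate 3 was 1.28 times the mean of the other libraries at 100 nM, and in Prdx1 it was 1.17 times that mean. Ephx1 lay farthest from the other libraries at 100 nM, at 0.536 times their mean, and was lowest there of all 6. Its difference was -0.04 with that library and 0.18 without it. Leaving it out gave a difference of -0.09 for Srxn1 and -0.03 for Prdx1, on the other side of 0 from the values with it. Prdx5 was high in replicate 3 of both groups, with 34.03, 35.2 and 42.2 FPKM at 100 nM, against 33.8, 34.5 and 42.9 FPKM at 0 nM.

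Over the 100 other pathway genes tested, that library was the highest for 23 and the lowest for 22, shares near those of all tested genes. Hmox1 and Sqstm1 were among the 23, while the marker Nqo1 was at 8.50 FPKM there, the lowest of the 100 nM libraries. Hmox1, heme oxygenase, had 30.6, 34.1 and 54.5 FPKM at 100 nM, against 36.6, 34.2 and 37.3 FPKM at 0 nM, and its difference was 0.09 with it and -0.15 without it. Sqstm1, the autophagy adaptor p62 that binds KEAP1, had 100.4, 102 and 118 FPKM at 100 nM, against 106, 107 and 104 FPKM at 0 nM. Gpx3, the secreted glutathione peroxidase, was lowest there and had 10.1, 11.3 and 0.37 FPKM at 100 nM, against 8.89, 10.1 and 12.3 FPKM at 0 nM. Blvrb, Ephx1, Prdx5 and Gpx3 were singled out after their values were seen. None of these genes passed, and without that library 0 of the 34 passed as well.

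Transcripts of leukocyte markers, whose cell of origin was not tested, were present in all 6 libraries. More of these markers were detected in replicate 3 at 100 nM than in any other library. Of 23 leukocyte markers measured, 20 were highest in it, a count that takes in Ms4a1, tied at 0 in all 6 libraries. At 1 FPKM or more there were 17, against 10 to 12 in each of the other 5 libraries. Their summed level was 161, 310 and 369 FPKM at 100 nM, against 206, 190 and 169 FPKM at 0 nM. Most of these sums came from Lyz2, the macrophage lysozyme, with 111, 240 and 185 FPKM at 100 nM, against 147, 126 and 103 FPKM at 0 nM. The T cell receptor component Cd3g reached 1.05 FPKM in that library and was at 0 in the other 5, while the B cell marker Ms4a1 was at 0 in all 6. Fibroblast and endothelial markers summed to 6.32, 7.27 and 8.91 FPKM at 100 nM, against 6.11, 6.37 and 6.01 FPKM at 0 nM. Of 13 epithelial markers, 11 or 12 were at 1 FPKM or more in every library, with sums of 877, 890 and 829 FPKM at 100 nM, against 794, 793 and 793 FPKM at 0 nM. Among them Cdh1, Krt7, Krt19, Dsp and Jup passed the limma test as higher at 100 nM, and no epithelial marker passed as lower. The part of other cells in the levels of Srxn1, Prdx1, Blvrb, Ephx1, Hmox1 and Sqstm1 was not tested, and in bulk samples fewer cells of a type and less RNA per cell cannot be told apart.

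**Figure D3:**
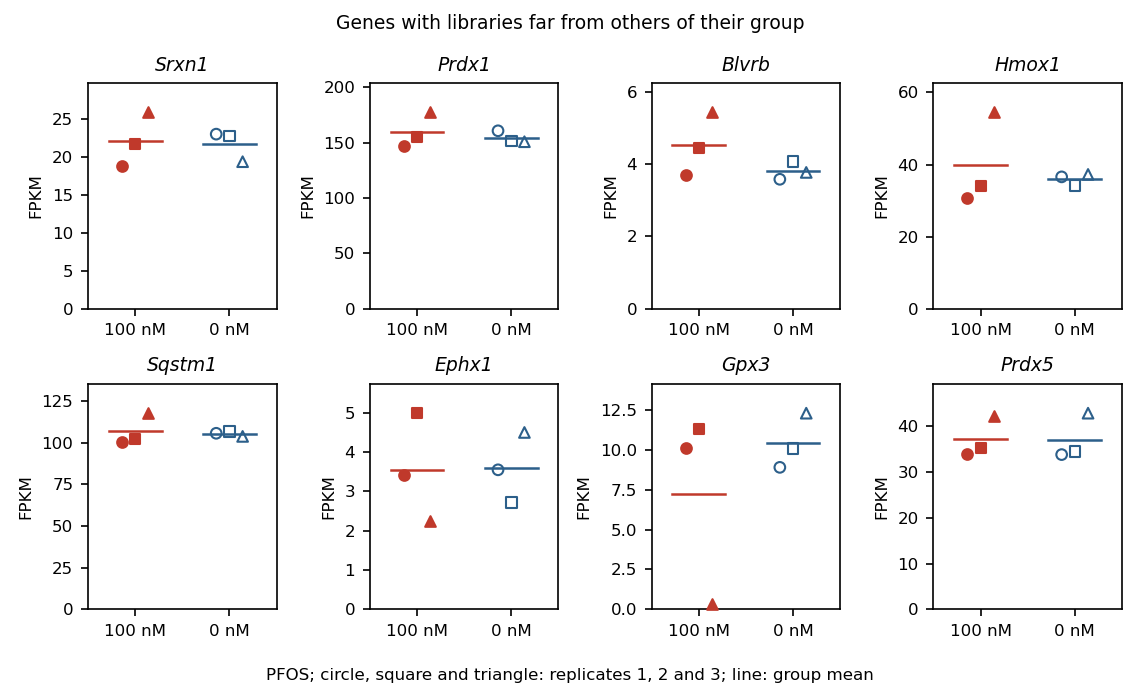
FPKM per library of 8 genes in which a library lay far from others of its group, at 100 nM PFOS (filled, left) and at 0 nM (open, right); circle, square and triangle are replicates 1, 2 and 3 and lines are group means. Hmox1 reaches 54.5 FPKM and Gpx3 is at 0.37 FPKM in replicate 3 at 100 nM, and Prdx5 is high in replicate 3 of both groups.

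Gclc and Gsta4 lie 0.4 Mb apart on chromosome 9, in a stretch where most genes were higher at 100 nM. Of 19 tested protein-coding genes that start within 2.5 Mb of Gclc, 17 had a difference above 0, with a median of 0.07, and of 14 around Gsta4, 12 did, with a median of 0.07. These windows overlap and each holds the other gene, so the counts are not separate. Over all tested genes, 52.6% had a difference above 0. Gpx1 and Me1 lie farther along the same chromosome, with 72 of 83 and 9 of 13 neighbours above 0 and medians of 0.07 each. Around Keap1, elsewhere on that chromosome, 31 of 54 neighbours were above 0, with a median of 0.004. Gsta4 (0.25) and Gclc (0.12) lay above the median of their neighbours, and Gpx1 (0.02) and Me1 (-0.02) below it. The part of the chromosome stretch in these values was not tested.

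Other genes of the pathway, 140 on the list, were counted in the same fit. Of 99 with a mean of at least 1 FPKM (100 gene identifiers, since Nnt has 2), 1 rose and 6 fell, 7 of 100 in all, where 1.69% of all tested genes were higher and 2.46% lower. Their median difference was -0.01, against 0.01 over all tested genes. By role, 1 of 15 regulators and partners of NRF2 fell, and 2 of 16 genes of cystine and glutathione handling fell. Of 13 genes listed under NADPH supply 1 fell, and 1 of 25 further NRF2-induced enzymes fell. A list of 22 further peroxide and superoxide genes, which also takes in sestrins and selenoproteins, held 1 that rose (Sesn3) and 1 that fell (Selenof). Of 9 further glutathione transferases 0 passed by limma (0 at an unadjusted p under 0.05).

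The largest of these was Selenof, a selenoprotein of the endoplasmic reticulum (ENSMUSG00000037072, chromosome 3, 144570304 to 144597680), with 70.8, 71.9 and 68.4 FPKM at 100 nM, against 99.7, 99.2 and 99.6 FPKM at 0 nM. It fell by 0.49 in log2(FPKM + 1), with a ratio of means of 0.707 (limma adjusted p = 0.000602), and was called in 20 of 20 alternatives. Of 23 tested protein-coding neighbours within 2.5 Mb, 21 were also lower, with a median difference of -0.28. Chac1, which degrades glutathione and is induced by the integrated stress response (chromosome 2, 119351229 to 119354381), had 5.46, 5.58 and 5.05 FPKM at 100 nM, against 7.23, 7.15 and 7.58 FPKM at 0 nM. It fell by 0.39 (limma adjusted p = 0.00870), in a stretch where 31 of 60 neighbours were lower and 29 higher. Its relative Chac2, which also degrades glutathione, had 8.77, 8.68 and 7.30 FPKM at 100 nM, against 9.36, 9.36 and 9.10 FPKM at 0 nM, and did not pass (limma adjusted p = 0.245).

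Maff, a small MAF protein and possible partner of NRF2, had 13.7, 15.4 and 14.0 FPKM at 100 nM, against 16.8, 17.5 and 16.8 FPKM at 0 nM (difference -0.23, limma adjusted p = 0.0476). Its relatives Mafg, at 21.1 and 21.1 FPKM on average at 100 nM and 0 nM, and Mafk, at 6.81 and 6.95 FPKM, did not pass. Sesn3, a sestrin that restrains mTORC1 signalling, had 3.13, 3.11 and 2.77 FPKM at 100 nM, against 2.20, 2.29 and 2.35 FPKM at 0 nM and was the gene that rose (difference 0.29, limma adjusted p = 0.0415). The glutathione conjugate exporter Abcc1 averaged 11.3 ± 0.201 FPKM at 100 nM and 12.8 ± 0.127 FPKM at 0 nM, and the mitochondrial malic enzyme Me2 averaged 14.9 ± 0.272 FPKM at 100 nM and 17.7 ± 0.531 FPKM at 0 nM (SD, n = 3 each). Adh7, an alcohol dehydrogenase, averaged 6.46 ± 0.191 FPKM at 100 nM and 7.64 ± 0.284 FPKM at 0 nM (SD, n = 3 each). These 3 fell by 0.17, 0.23 and 0.21 (limma adjusted p = 0.0255, 0.0148 and 0.0379). Lower neighbours made up 18 of 20 around Abcc1, 12 of 14 around Me2 and 11 of 11 around Adh7, with medians of -0.16, -0.14 and -0.08. Around Sesn3, on chromosome 9, 14 of 18 neighbours were higher, with a median of 0.04. Around Maff 23 of 75 were lower and 52 higher, with a median of 0.03, on the other side of 0 from Maff itself. The part of these stretches was not tested.

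The count of 7 was between 2 and 4 when 1 library was left out, whichever of the 6 it was: 2 without replicate 1, 2 or 3 at 0 nM or replicate 1 at 100 nM, 3 without replicate 2 at 100 nM and 4 without replicate 3 at 100 nM. Maff and Adh7 did not pass in 10 of 20 alternatives each, Sesn3 in 9 of 19, Abcc1 in 8 of 20, Me2 in 7 of 20 and Chac1 in 2 of 20.

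**Figure D4:**
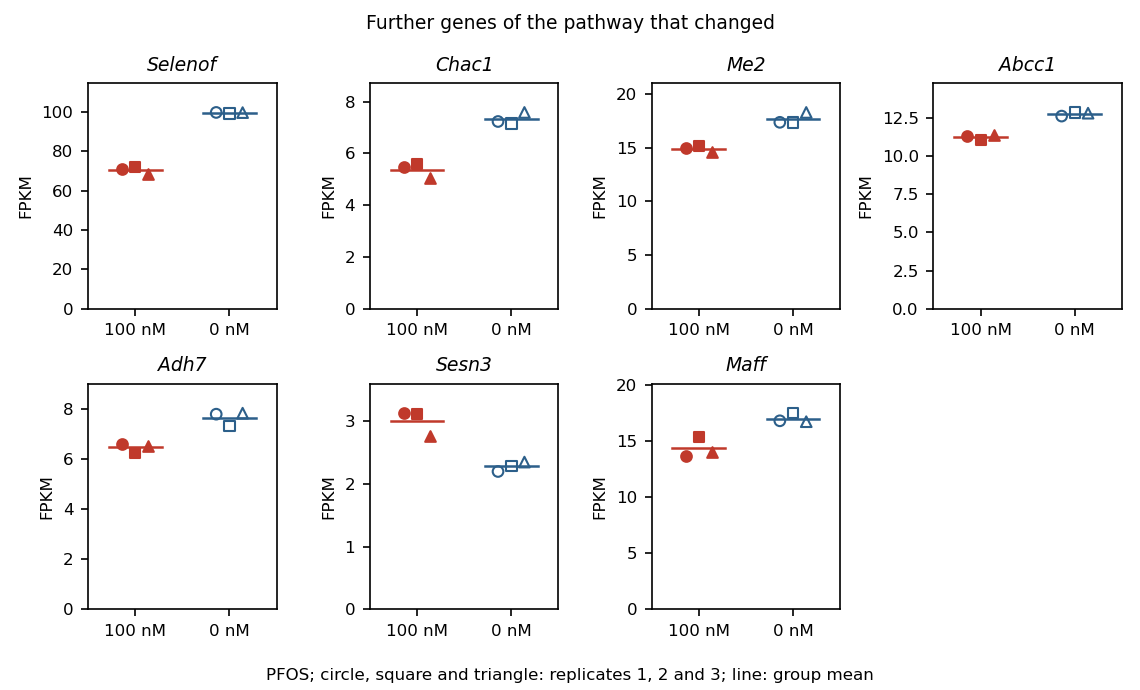
FPKM per library of the 7 further pathway genes that changed, at 100 nM PFOS (filled, left) and at 0 nM (open, right); symbols are replicates and lines are group means. The groups do not overlap in any panel, and Sesn3 is the one panel with 100 nM above 0 nM.

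Among genes closest to NRF2 itself, Bach1, the repressor that competes for the same elements, had 4.29, 4.31 and 4.54 FPKM at 100 nM, against 4.93, 4.53 and 4.45 FPKM at 0 nM. Nfe2l1, a related factor that controls proteasome genes, had 42.7, 44.2 and 44.8 FPKM at 100 nM, against 45.6, 46.1 and 45.2 FPKM at 0 nM, without overlap (difference -0.06, interval -0.11 to 0.00, limma adjusted p = 0.271). Slc7a11, the cystine transporter that feeds glutathione synthesis, was low in these cells, with 0.99, 1.25 and 1.69 FPKM at 100 nM, against 1.45, 1.39 and 1.40 FPKM at 0 nM. Its group ranges overlapped and its interval ran from -0.35 to 0.20.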

How the data were processed

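Poly(A) RNA of 6 4T1 libraries was sequenced in pairs after dUTP strand marking, per the labels' protocols. The authors deposited FPKM per gene, written to 2 decimals; fastp, HISAT2 and StringTie and the builds GRCh38 and mm10 are named in the submitters' processing notes, and their versions, the role of each build and the strand setting are not given there. The tables hold no counts, so depth is unknown; library sums were 306716 to 309381 FPKM. Symbols came from GENCODE M21 (GRCm38), which held 28350 of 28418 identifiers, and 25640 had the same coordinates there.

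limma-trend (limma 3.58.1, R 4.3.3) was fitted to log2(FPKM + 1) of the 11741 genes averaging at least 1 FPKM, two-sided, with Benjamini-Hochberg adjustment over these genes and a threshold of 0.05. Shared sequence is the share of a gene's 31-base words found in GENCODE M21 transcripts of other genes on either strand; 11 of the 34 genes shared at least 10%. Alternatives covered pseudocounts (0.1, 0.5 and 2), filters, scaling, moderation, library weights, the replicate number as a block, protein-coding genes and leaving out libraries.

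The members and lists were chosen with earlier results of these data known. Values per library are given for the 8 members with the smallest p, the 6 with the highest mean, 8 listed by name (Nfe2l2, Keap1, Nqo1, Gclc, Gclm, Txnrd1, Srxn1 and Osgin1), the changed genes among the other pathway genes (at most 6 of them) and Hmox1, Slc7a11, Bach1, Nfe2l1 and Sqstm1; Maff was added as the seventh changed gene, and Ephx1, Blvrb, Prdx5, Gpx3, Gstp2, Chac2 and the marker genes after their values were seen. Other steps and figures ran in Python 3.11.15 with numpy 2.4.6, pandas 2.3.3 and matplotlib 3.10.9.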

Additional observations from a re-analysis of the deposited data

How the results depend on the processing

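Over 20 alternatives the count of the 34 genes that passed stayed at 0 in 18 and was 1, Gsto1, with a minimum of 5 FPKM and 1 with protein-coding genes only. Their median difference was 0.031, and 0.014 without replicate 3 of both groups. All genes changed numbered 487, and 204 with no filter on low values, 294 with no trend, 58 with the replicate block, 74 without replicate 3 of both groups and 122 to 289 when 1 library was left out. Changed genes of the wider pathway numbered 7, and 4 with no filter, 11 with a minimum of 5 FPKM, 12 with protein-coding genes only, 1 with the replicate block, 1 without replicate 3 of both groups and 2 to 4 when 1 library was left out. Whether libraries of the same replicate number belong together is not known here. Deviations of same-numbered libraries correlated at -0.03, -0.05 and 0.01 across genes, and no library correlated best with its own number. Such correlations over all genes do not show whether single genes were linked, and Prdx5 was high in replicate 3 of both groups. The cause of these moves was not tested.

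Differences that changed sign were near 0 or wide. With library weights they were 0.074 for Ephx1, 0.0012 for Gsr, -0.023 for Srxn1, -0.018 for Prdx5 and -0.011 for Sqstm1. Without replicate 3 of both groups they were 0.32 for Ephx1, -0.0048 for Gss, 0.0072 for Gsr, -0.17 for Srxn1, 0.0090 for Me1, -0.048 for Prdx1, 0.0016 for Prdx3, -0.0081 for Prdx6, -0.013 for Sod2, 0.0072 for Gpx4, -0.13 for Hmox1 and -0.067 for Sqstm1. With 1 library left out the ranges were -0.0098 to 0.029 for Nfe2l2, -0.0015 to 0.020 for Keap1, -0.26 to 0.18 for Ephx1, -0.039 to 0.0091 for Gclm, -0.033 to 0.024 for Gsr, -0.095 to 0.12 for Srxn1, -0.045 to 0.0079 for Me1, -0.032 to 0.10 for Prdx1, -0.089 to 0.11 for Prdx5, -0.013 to 0.020 for Prdx6, -0.011 to 0.091 for Sod2, -0.0041 to 0.039 for Gpx1, -0.15 to 0.26 for Hmox1, -0.19 to 0.028 for Slc7a11 and -0.056 to 0.058 for Sqstm1.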
